A study of Mus musculus with 12 samples.

Results

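The comparison described here set livers of Cyp1b1 null mice on a high-fat diet against livers of Cyp1b1 null mice on a low-fat diet, across all genes measured. It used 6 of the 12 arrays of the study, 3 per diet, taken by their sample labels. The study hybridised liver RNA of wild-type and Cyp1b1 null mice on both diets to Agilent mouse whole-genome arrays with 2 colours. Each array held 1 liver sample in the green dye Cy3 and, in the red dye Cy5, a reference of pooled liver RNA from wild-type mice on the low-fat diet. The label "3 samples pooled" stood on every array. It does not say whether each of the 3 arrays of a group held its own pool or whether they shared a pool. Whether the spread between arrays includes that between animals or pools is therefore not known.

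All mice were male. They were weaned at 3 weeks of age onto a low-fat diet (10% fat) or a high-fat diet (60%) and were killed at 14 weeks, and by their labels both null groups share the Cyp1b1 null genotype and differ in diet. The wild-type groups, used here only for a side-by-side reading, were C57BL6/J, and no source used here gives the background strain of the null line. The labels call the tissue liver hepatocytes, with no separation of cells described, so the RNA is taken as that of the liver sample as it was. Nothing in the labels says how animals were assigned to pools, and the p-values measure only the spread between these arrays. The authors' deposited table holds no column for this comparison.

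CYP1B1 is a cytochrome P450 that oxidises steroids, retinoids, fatty acids and aromatic compounds, and its loss in mice is known for altered hepatic lipid handling. In liver, glucose in excess of need is turned into fatty acids by acetyl-CoA carboxylase and fatty acid synthase with NADPH from malic enzyme and the pentose phosphate pathway, and stearoyl-CoA desaturase 1 (Scd1) then makes the monounsaturated fatty acids used for triglycerides. The genes of that route are switched on by insulin and carbohydrate through SREBP-1c, ChREBP and LXR, while fatty acids reaching the liver act on PPARalpha, which drives genes of fatty acid oxidation. A diet rich in fat and poor in carbohydrate is a common setting in which the first route is low and the second high.

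All values below are log2 ratios of a liver sample to the shared reference, so that 0 means the level of the pooled wild-type low-fat liver and -1 means a level lower by 1 log2 unit. Differences are null high-fat minus null low-fat on that scale, with the standard error (SE) of the model fitted to all 12 arrays with limma. A gene was called when its p-value, adjusted by Benjamini and Hochberg over the 14911 genes measured, was under 0.05. Between 20957 and 22773 of the 41174 probes were well above background in the sample channel of a null array. The number of arrays limits the precision.

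The arrays were spread over 4 slides and 3 scans, and this layout touches every result. Null high-fat arrays 1 and 3 lay on slide 1 and null low-fat arrays 2 and 3 on slide 2, all in scan 1, whereas null low-fat array 1 and null high-fat array 2 shared slide 3 in scan 2. Within scan 1, slide and diet therefore cannot be told apart, and within slide 3 there is 1 array against 1. Across genes, null arrays of 1 scan correlated at 0.759 to 0.938 (7 pairs) and null arrays of different scans at 0.426 to 0.713 (8 pairs), and the 2 arrays of slide 3, which differ in diet, correlated at 0.824. The within-scan differences are printed beside the main results for this reason.

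The label of the targeted gene was examined first. In null livers the Cyp1b1 probe read 1.68, 1.58 and 1.59 for low-fat arrays 1 to 3 and 1.53, 1.68 and 1.25 for high-fat arrays 1 to 3. In wild-type livers it read 0.17, -0.85 and -1.11 for the low-fat and -0.69, -0.97 and -0.91 for the high-fat diet. On this probe all 6 arrays labelled null were thus above all 6 labelled wild-type. No source used here states where this probe sits relative to the deletion, so the reading does not check the null label. Between the 2 null groups it differed by -0.13 (SE 0.28), with overlapping arrays. A second Cyp1b1 probe was well above background on only 2 arrays, both null. That probe read from -0.01 to 0.28 on the null and from -0.08 to 0.06 on the wild-type arrays, with overlap. Of the hepatocyte markers, 18 of 20 were measured, their median difference was 0.13 and none was past the test.

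One gene, Scd1, was called between the diets in null liver. That is 0.00671% of the 14911 genes. An unadjusted limma p under 0.05 was met by 469 genes, 197 higher (1.32%) and 272 lower (1.82%) on the high-fat diet. Without 1 array that number ran from 237 (without null high-fat array 1) to 1043 (without null high-fat array 2), and it was 311 without null low-fat array 3, 253 without null high-fat array 3 and 1257 with scan as a block. The 3 high-fat arrays lay wholly above the 3 low-fat arrays for 503 genes (3.37%) and wholly below for 650 (4.36%), and the median difference over all genes was 0.01. Every other gene named below is given by its values and was not past the adjusted test. When arrays were weighted by their agreement, the count was 1071 genes (447 higher, 624 lower). The weights were 4.50 and 2.22 for null high-fat arrays 1 and 3, 3.58 for null low-fat array 3 and between 0.315 and 2.26 for the other 9 arrays, and the 3 heavy null arrays all belong to scan 1.

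**Figure D1:**
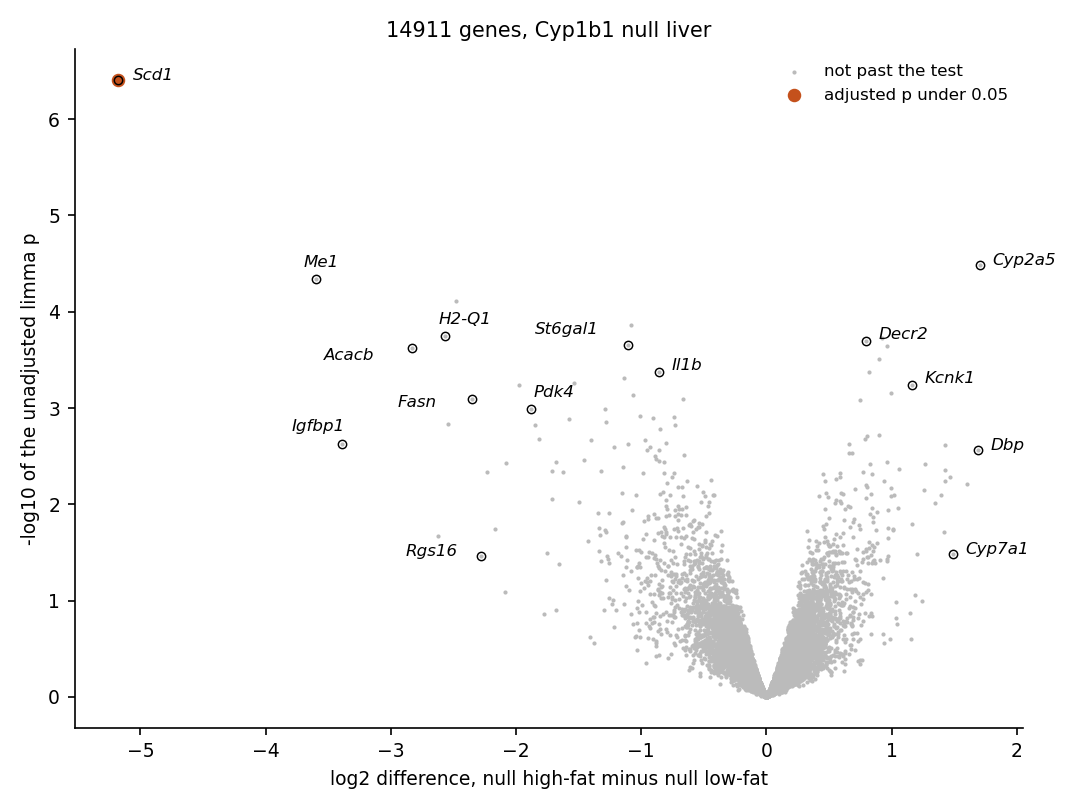
Each point is 1 of 14911 genes, with the log2 difference between null high-fat and null low-fat livers on the horizontal axis and the negative log10 of its unadjusted limma p on the vertical axis (3 arrays per diet). Scd1, the coloured point at -5.18, is the 1 gene past the adjusted threshold, and circles mark genes described in the text.

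Scd1 fell in the null livers on the high-fat diet. Its log2 ratios were -0.28, 0.74 and 0.31 for null low-fat arrays 1 to 3 and -5.94, -4.06 and -4.77 for null high-fat arrays 1 to 3. The low-fat arrays sat near the wild-type low-fat reference and the high-fat arrays far below it, with no overlap. The difference was -5.18 (SE 0.49, 95% interval -6.26 to -4.10), a 36.3-fold lower level, with a limma adjusted p of 0.00587. The enzyme places a double bond in stearate and palmitate, and its product oleate is the main fatty acid of newly made hepatic triglyceride.

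The scanner signals behind these ratios show the gap in the sample channel itself, before loess took out the dye balance of each array. The Scd1 spot gave sample intensities of 19657, 54668 and 41689 on the low-fat arrays and of 2021, 1625 and 4757 on the high-fat arrays. The reference intensity of that spot was 63780, 9094 and 9921 on the low-fat arrays and 44002, 65219 and 34848 on the high-fat arrays. The reference was thus dimmest on slide 2, which holds low-fat arrays 2 and 3, and it was saturated on high-fat array 2. From the sample channel alone, after quantile normalization, the difference was -3.86 (adjusted p = 0.0287). Within scan 1 the difference was -5.88 and within scan 2 it was -3.78.

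The Scd1 call was lost without null low-fat array 2 (adjusted p = 0.0570), without null low-fat array 3 (0.0644), with no filter on dim probes (0.0531), on the 6 null arrays alone (0.0733), with slide as a block (0.211) and with median centring in place of loess (0.9999). Over 18 alternatives, single scans aside, its difference lay between -5.88 and -3.86, and over the 12 fits without 1 array between -5.61 and -4.67.

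The genes that make fatty acids were lower by count in the high-fat null livers, although none of this list was called. Of 21 measured genes of fatty acid synthesis and its regulators, 15 were lower and 6 higher, against 47.5% lower among all genes. For 8 of the 21 the high-fat arrays lay wholly below the low-fat arrays, for none wholly above (4.36% and 3.37% of all genes), and 8 had an unadjusted p under 0.05, all lower (1.82% of all genes had). The median of the list was -0.63, against 0.01 over all genes, with -0.79 within scan 1 and -0.26 within scan 2. In array order its medians were -0.13, 0.91 and 0.35 on the low-fat and -0.08, -0.45 and -0.13 on the high-fat diet. Low-fat array 1 thus lay inside the high-fat range.

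Me1 encodes cytosolic malic enzyme, a source of NADPH for lipogenesis. It read -0.89, 0.95 and 0.35 on the low-fat and -3.45, -3.25 and -3.67 on the high-fat arrays. The difference was -3.59 (SE 0.56, limma adjusted p = 0.227), and a second probe of the gene differed by -3.76. The high-fat arrays lay close together and well below the scattered low-fat arrays.

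Both acetyl-CoA carboxylases had lower values on the high-fat diet. Acacb, whose product malonyl-CoA restrains fatty acid entry into mitochondria, read 0.49, 0.54 and 0.56 against -2.73, -2.18 and -1.99 (-2.83, SE 0.53, limma adjusted p = 0.322). Its 3 low-fat arrays lay close together, and the groups were far apart. Acaca, the cytosolic form that feeds fatty acid synthase, read -0.57, 1.07 and 0.66 against -0.69, -1.41 and -0.78 (-1.35, SE 0.45). The Acaca groups did not overlap, but low-fat array 1 lay near the high-fat arrays.

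Fasn, the fatty acid synthase itself, read 0.40, 0.41 and 0.34 on the low-fat and -2.72, -1.26 and -1.91 on the high-fat arrays. Its difference was -2.35 (SE 0.52, limma adjusted p = 0.537) and a second probe gave -1.84. The Fasn spot was saturated in the sample channel of 2 null arrays and in the reference of 2, which can shrink a ratio. The low-fat arrays again lay close together, and the groups did not overlap.

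Enzymes on either side of the synthase had the same sign with smaller values. Elovl6, which lengthens palmitate to stearate, the substrate of Scd1, read 0.17, 1.79 and 0.87 against -0.62, -1.47 and -0.13 (-1.68, SE 0.46). The pentose phosphate genes Pgd and G6pdx, which also supply NADPH, differed by -0.93 (SE 0.24) and -0.78 (SE 0.34), both without overlap. Pklr, the liver pyruvate kinase under ChREBP control, differed by -1.03 (SE 0.46) with overlapping arrays.

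Srebf1, which encodes the SREBP-1 regulators of this route, did not share the direction. It read -0.87, 0.80 and -0.21 on the low-fat and 0.22, -0.28 and 0.43 on the high-fat arrays, an overlap that left a difference of 0.22 (SE 0.48).

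**Figure D2:**
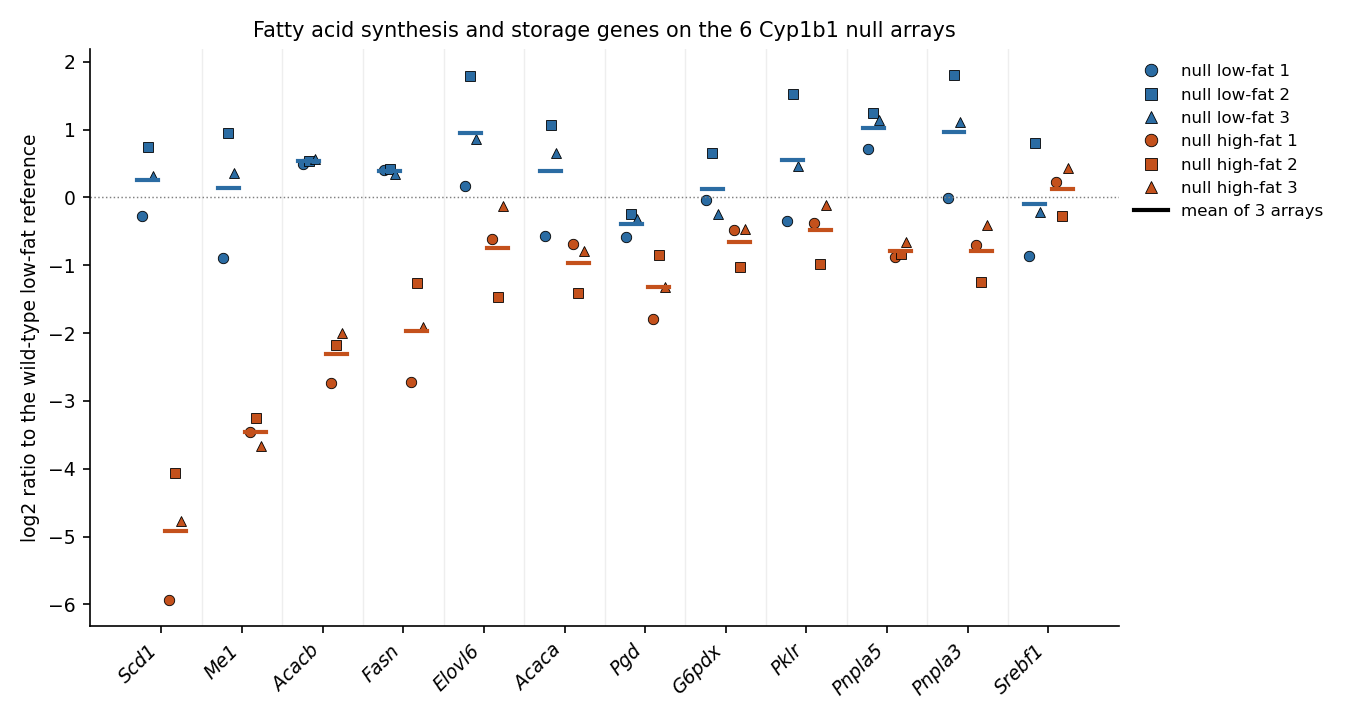
Log2 ratio to the wild-type low-fat reference (vertical axis) of 12 genes on the 3 null low-fat arrays (blue) and 3 null high-fat arrays (orange), with a bar at each mean and a marker shape per array number. Scd1, Me1, Acacb and Fasn show wide gaps between the diets, Pklr overlaps at its edge and Srebf1 overlaps.

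Promoter sequences are printed for Me1, Acacb and Fasn, the genes of this list with the largest differences, so that a reader can see what lies just upstream of each start. Each runs 5′ to 3′ on the gene's strand over the 250 bases before the start, from RefSeq on GRCm38.p6, and of the 2 starts listed for Me1 the one nearest the annotated 5′ end was used. Capitals mark a CCAAT box, which the factor NF-Y binds, or a GC box, spelled GGGCGG, which factors of the Sp family bind, each on either strand. The windows were also searched on both strands for an E box, spelled CACGTG, and for a sterol regulatory element, spelled TCACNCCAC.

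Fasn: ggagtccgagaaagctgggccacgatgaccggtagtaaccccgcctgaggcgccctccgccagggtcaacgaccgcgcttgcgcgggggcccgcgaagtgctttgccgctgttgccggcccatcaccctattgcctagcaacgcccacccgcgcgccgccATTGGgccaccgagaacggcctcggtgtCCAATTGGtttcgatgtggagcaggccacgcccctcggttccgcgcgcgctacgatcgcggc
Acacb: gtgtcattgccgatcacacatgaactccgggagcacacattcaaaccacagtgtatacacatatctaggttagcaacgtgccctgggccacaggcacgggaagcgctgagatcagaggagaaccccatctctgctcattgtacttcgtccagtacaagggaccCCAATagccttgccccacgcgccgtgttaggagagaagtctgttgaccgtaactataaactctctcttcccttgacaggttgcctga
Me1: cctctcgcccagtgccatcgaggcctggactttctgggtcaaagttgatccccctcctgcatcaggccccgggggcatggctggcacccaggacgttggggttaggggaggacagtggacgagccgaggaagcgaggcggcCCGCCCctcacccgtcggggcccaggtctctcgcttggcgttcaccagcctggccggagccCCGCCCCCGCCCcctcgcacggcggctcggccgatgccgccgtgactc

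The Fasn window (chr11:120824548-120824797, minus strand) held 3 CCAAT boxes, of which the pair nearest the start overlap on opposite strands. The Acacb window (chr5:114165268-114165517, plus strand) held 1 CCAAT box. The Me1 window (chr9:86695915-86696164, minus strand) held 3 GC boxes and no CCAAT box. Neither the E box nor this form of the sterol element was found in the 3 windows. Of 32851 promoters of this length in the RefSeq table, 33.8% held a CCAAT box, 32.7% a GC box, 6.02% the E box and 1.05% the sterol element.

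Other desaturases and elongases were measured with Scd1 in a list of 14 genes, of which 9 were lower and 5 higher (median -0.17). Elovl5, which lengthens polyunsaturated fatty acids, read -0.36, -0.25 and -0.64 against -2.01, -1.32 and -0.88 (-0.98, SE 0.37), with no overlap. Scd2, the desaturase that prevails outside adult liver, was already low against the reference on the low-fat diet. It read -3.08, -2.48 and -2.69 against -3.71, -3.95 and -3.65 (-1.02, SE 0.75), without overlap but with a wide error.

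The triglyceride genes include the adiponutrin family. Pnpla3, which acts on lipid droplet triglyceride and follows SREBP-1c, read -0.01, 1.80 and 1.11 on the low-fat arrays and was too dim on all 3 high-fat arrays to count as well above background, so no fold is given. Its close relative Pnpla5 read 0.71, 1.24 and 1.13 against -0.88, -0.83 and -0.66 (-1.82, SE 0.46). Over the 27 measured genes of triglyceride assembly and lipolysis, 17 were lower and 10 higher (median -0.07), and 3 lay wholly lower (11.1%, against 4.36% of all genes).

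Genes of cholesterol synthesis and uptake were also lower by count. Of 27 measured, 19 were lower and 8 higher, the median was -0.29, and it was alike within scan 1 (-0.24) and within scan 2 (-0.23). The high-fat arrays lay wholly below the low-fat arrays for 6 and wholly above for 1 (Mvk, mevalonate kinase, 0.37, SE 0.24), against 4.36% and 3.37% of all genes.

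Rdh11, a retinal reductase that SREBPs regulate, had the lowest p of that list. It read 0.86, 0.87 and 1.26 against -1.21, -0.46 and -0.07 (-1.57, SE 0.37, limma adjusted p = 0.667), and a second probe differed by -1.27. Several enzymes of the mevalonate and squalene route gave values of the same sign. Fdps, farnesyl diphosphate synthase, differed by -0.86 (SE 0.30) and Sqle, squalene epoxidase, by -0.92 (SE 0.43), both without overlap. Hmgcs1 (-0.64, SE 0.33) and Mvd (-0.86, SE 0.44), also without overlap, lie early in the route. With Agilent's processed signals the Hmgcs1 difference was 3.06, of the other sign.

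Srebf2, which encodes the SREBP that controls these genes, differed by -0.46 (SE 0.24) without overlap.

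Export of sterols went the other way by value. Abcg5 and Abcg8 encode the partners of the canalicular pump that sends cholesterol into bile, and both are LXR targets. Abcg5 read 0.57, 0.65 and 0.52 against 1.06, 1.17 and 1.69 (0.72, SE 0.29), and Abcg8 read 0.21, 0.67 and 0.24 against 1.26, 1.0 and 1.56 (0.90, SE 0.22, limma adjusted p = 0.799). All 3 high-fat arrays were above all 3 low-fat arrays for both genes, and a second Abcg8 probe differed by 0.35. Of the 16 measured genes of cholesterol efflux and sterol esters, 13 were higher and 3 lower (median 0.18), and 3 lay wholly higher (18.8%, against 3.37% of all genes).

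Bile acid genes gave 21 higher and 5 lower of 26 measured, with a median of 0.13. Cyp7a1, the rate-limiting enzyme of bile acid synthesis, read -1.16, -1.39 and -0.33 against -0.32, -0.26 and 2.16 (1.49, SE 0.61). That value rests in large part on high-fat array 3, since the other arrays of the 2 diets nearly touched and a second, dimmer probe of the gene differed by 0.29. Cyp8b1, which sets the share of cholic acid, differed by 0.17 (SE 0.62), and Cyp7b1, of the alternative route, by 0.48 (SE 0.69). Slc10a2, the apical bile acid transporter, had the lowest value of the list, at -1.22, -0.87 and -0.95 against -1.59, -2.09 and -1.93 (-0.86, SE 0.23).

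Genes of fatty acid oxidation were higher by count. Of 35 measured genes of mitochondrial and peroxisomal beta-oxidation, 26 were higher and 9 lower (52.5% of all genes were higher), with a median of 0.27. Scan 1 alone gave a median of 0.28 and scan 2 alone 0.26. The high-fat arrays lay wholly above the low-fat arrays for 6 of the 35 and wholly below for none, while 3.37% of all genes lay wholly above.

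Decr2, the peroxisomal dienoyl-CoA reductase that prepares polyunsaturated fatty acids for oxidation, had the lowest p of the list. It read -0.24, -0.42 and -0.20 on the low-fat and 0.38, 0.59 and 0.57 on the high-fat arrays (0.80, SE 0.15, limma adjusted p = 0.322). The enoyl-CoA isomerases Eci1 and Eci2, which also serve unsaturated chains, differed by 0.64 (SE 0.26) and 0.77 (SE 0.33). Acaa1a, the peroxisomal thiolase, read -0.05, -0.62 and -0.47 against 0.34, 0.51 and 0.26 (0.74, SE 0.27). In all 4 genes every high-fat array was above every low-fat array.

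PPARalpha targets as a list gave 25 higher and 8 lower of 33, with a median of 0.27, and the members split. This list shares members with the beta-oxidation list, Acaa1a among them, so their counts are not separate observations. Vnn1, the pantetheinase, read -3.13, -3.16 and -1.67 against -1.22, -1.38 and -1.12 (1.42, SE 0.52). Acot1, a cytosolic acyl-CoA thioesterase, differed by 0.67 (SE 0.36) without overlap. Outside the list, Aldh3a2, the fatty aldehyde dehydrogenase, read -1.92, -1.30 and -1.17 against 0.04, -0.35 and 0.20 (1.43, SE 0.40).

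The omega-hydroxylases Cyp4a10 and Cyp4a14, classic markers of PPARalpha activity, showed no clear separation. Cyp4a10 read -3.19, -3.38 and -2.94 against -2.09, -2.14 and -3.10 and Cyp4a14 -6.07, -6.28 and -4.19 against -5.47, -5.40 and -6.04. Both were far below the wild-type reference on all 6 null arrays. The differences were 0.73 (SE 0.48) and -0.12 (SE 0.75), with wide errors.

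Other members of the list had values below 0. Pdk4, the kinase that shuts pyruvate out of oxidation, read -0.50, -0.30 and -1.83 against -2.78, -2.29 and -3.19 (-1.88, SE 0.43, limma adjusted p = 0.616). Fgf21, the hormone released on fasting and protein restriction, read -3.65, -2.61 and -2.12 against -4.26, -3.26 and -4.42, with overlap. Its difference was -1.19 (SE 0.49), from -1.98 within scan 1 and 0.39 within scan 2, which differ in sign. Ppargc1a, the coactivator of oxidation and gluconeogenesis, differed by -0.65 (SE 0.27) without overlap, and Ppara itself by 0.68 (SE 0.31) with overlap.

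Fatty acid entry and storage showed no shared direction. In a list of 21 measured genes of uptake, binding and activation, 11 were higher and 10 lower (median 0.01). The acyl-CoA synthetases Acsl1 (0.70, SE 0.33) and Slc27a2 (0.54, SE 0.21) were higher without overlap, although a second Slc27a2 probe differed by -0.02. Fabp5, a fatty acid binding protein, read 1.78, 0.57 and 1.14 against 0.08, 0.11 and -0.02 (-1.11, SE 0.28).

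Of 23 measured PPARgamma and lipid droplet genes, 15 were lower and 8 higher (median -0.23), with 1 wholly lower and 3 wholly higher, against 4.36% and 3.37% of all genes. Scan 1 alone gave -0.33 as the median of these genes and scan 2 alone 0.04. Pparg differed by -0.33 (SE 0.25), its target Cd36, a fatty acid translocase, by -0.20 (SE 0.54), and Mogat1, an acyltransferase, by -0.26 (SE 0.34), all with overlap. Plin2, the coat protein of hepatic lipid droplets and a common sign of stored fat, read -0.88, -0.85 and -0.76 against -0.58, -0.38 and -0.68 (0.28, SE 0.36). The high-fat arrays were above the low-fat arrays there, yet by less than the model's error, and the sign turned from the sample channel alone and with slide as a block. The Plin2 reference was saturated on 1 null array. Plin4 differed by -0.94 (SE 0.47) with overlap.

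Null low-fat array 1 was the highest of the null arrays in several genes known from fat cells. Cfd (adipsin) read 3.47, -0.99 and 0.03 on the low-fat and -0.83, -1.20 and -0.80 on the high-fat arrays, and Cidea, a lipid droplet protein of fat cells, 3.45, -1.05 and -1.01 against -1.20, -1.41 and -1.04. Fabp4, the adipocyte fatty acid binding protein, read -0.18, -3.58 and -3.73 against -3.72, -3.22 and -3.69, and Cidec -0.71, -2.63 and -2.53 against -2.93, -2.63 and -3.04. That 1 array was the high one in all 4 genes, well above the other 5 arrays. Slc2a4, the insulin-dependent glucose carrier, was also highest there, with 1.36, 0.26 and -0.01 against -0.52, -0.81 and -0.49. Cfd and Slc2a4 were too dim on all 3 high-fat arrays to count as well above background. Cidea was well above background on 2 of the 3 low-fat arrays and 1 of the 3 high-fat arrays.

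Of 16 adipocyte markers, 7 were measured, and the defining markers Adipoq, Lep, Retn and Plin1 were not among them. The median of the 7 was -0.10, -0.99 and -0.01 on low-fat arrays 1 to 3 and -0.83, -1.20 and -0.80 on high-fat arrays 1 to 3, so over the whole list low-fat array 3, not array 1, was highest. Car3, a carbonic anhydrase abundant in fat and liver, went the other way, with -0.77, 0.68 and 0.11 on the low-fat arrays, lowest on array 1, and 1.39, 0.71 and 1.69 on the high-fat arrays (1.26, SE 0.38). Its reference channel was saturated on 1 null array. The median difference of the 7 markers, -1.05, was -0.22 within scan 1, without array 1, and -2.17 within scan 2, with it. In a bulk sample fewer cells of a type and less RNA per cell cannot be told apart, and the part of other tissue in these values was not tested.

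Genes of drug and steroid metabolism held some of the large values in the upward direction. Cyp2a5, which oxidises coumarin and nicotine, read -2.19, -2.55 and -2.61 on the low-fat and -0.67, -0.64 and -0.93 on the high-fat arrays (1.71, SE 0.26, limma adjusted p = 0.227). Cyp2a4, a steroid hydroxylase, read -3.22, -3.33 and -3.31 against -1.66, -1.67 and -1.72 (1.60, SE 0.48). Arrays of 1 diet lay close together and the diets were wide apart for both genes, and both genes were below the wild-type reference on every null array. The 2 genes are near-identical copies, so their probes may share signal and the values may be 1 observation. The within-scan differences of Cyp2a5 were 1.79 and 1.55.

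Of 30 measured targets of the xenobiotic receptors CAR and PXR, 18 were higher and 12 lower (median 0.20), with 7 wholly higher and none wholly lower, against 3.37% and 4.36% of all genes. Aldh1a1, a retinal dehydrogenase, differed by 1.05 (SE 0.34) and Por, the reductase that feeds electrons to P450 enzymes, by 1.01 (SE 0.37), both without overlap. The standard CAR and PXR reporters did not separate. Cyp2b10 stayed too dim on all 6 null arrays to count as well above background, Cyp3a11, saturated in the reference of 2 null arrays, read -2.17, -2.09 and -2.08 against -2.60, -1.68 and -2.81, and Cyp2b9 differed by -0.36 (SE 0.70).

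The conjugating enzymes gave the highest list median. Of 21 measured sulfotransferases and glucuronosyltransferases, 15 were higher and 6 lower. The median was 0.47, with 0.41 within scan 1 and 0.53 within scan 2. In array order the list medians were -0.19, 0.32 and 0.37 on the low-fat and 0.76, 0.26 and 0.77 on the high-fat diet, with overlap. Sult5a1 read 1.33, 1.19 and 0.84 against 2.16, 2.04 and 2.19 (1.01, SE 0.37) and Sult1b1 1.09, 0.76 and 1.10 against 1.70, 1.65 and 1.75 (0.72, SE 0.31). Hsd17b6, a steroid and retinol dehydrogenase, differed by 1.43 (SE 0.42), also without overlap.

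Insulin-linked and glucose genes were headed by Igfbp1, the insulin-suppressed binding protein of IGF. It read -0.09, -3.51 and -2.34 on the low-fat and -6.04, -3.65 and -6.43 on the high-fat arrays (-3.39, SE 0.87, limma adjusted p = 0.799). The groups barely cleared each other, and the spread within each diet was wide. The Igfbp1 reference channel was saturated on 2 null arrays. The difference was -3.30 within scan 1 and -3.56 within scan 2. G6pc, the last step of glucose output, differed by -0.50 (SE 0.40) and Igfbp2 by 0.48 (SE 0.48), both with overlap.

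Clock genes showed paired values in opposite directions. Of 20 measured clock and output genes, an unadjusted p under 0.05 was met by 7 on the higher and 3 on the lower side, against 1.32% and 1.82% of all genes. Dbp, an output of the clock that binds D boxes, read 0.08, 0.83 and -0.14 against 2.11, 1.28 and 2.45 (1.69, SE 0.44), and Nfil3, which represses the same elements, -0.25, -0.53 and -0.04 against -0.96, -1.01 and -1.32 (-0.82, SE 0.22). Neither gene's groups overlapped.

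The repressors Nr1d1 and Nr1d2 (REV-ERB) differed by 1.35 (SE 0.43) and 1.39 (SE 0.43). Per2 differed by 0.70 (SE 0.24) without overlap. Per1 read -0.13, -0.25 and -0.51 against 1.07, -0.14 and 1.09, with high-fat array 2 inside the low-fat range, so that its difference was 1.46 within scan 1 and -0.01 within scan 2. Scan 1 alone gave a list median of 0.46 and scan 2 alone -0.08, and no source used here gives the hour of killing. Tef differed by 1.47 (SE 0.42) on its brightest probe, but by 0.29 and 0.02 on 2 dimmer probes.

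**Figure D3:**
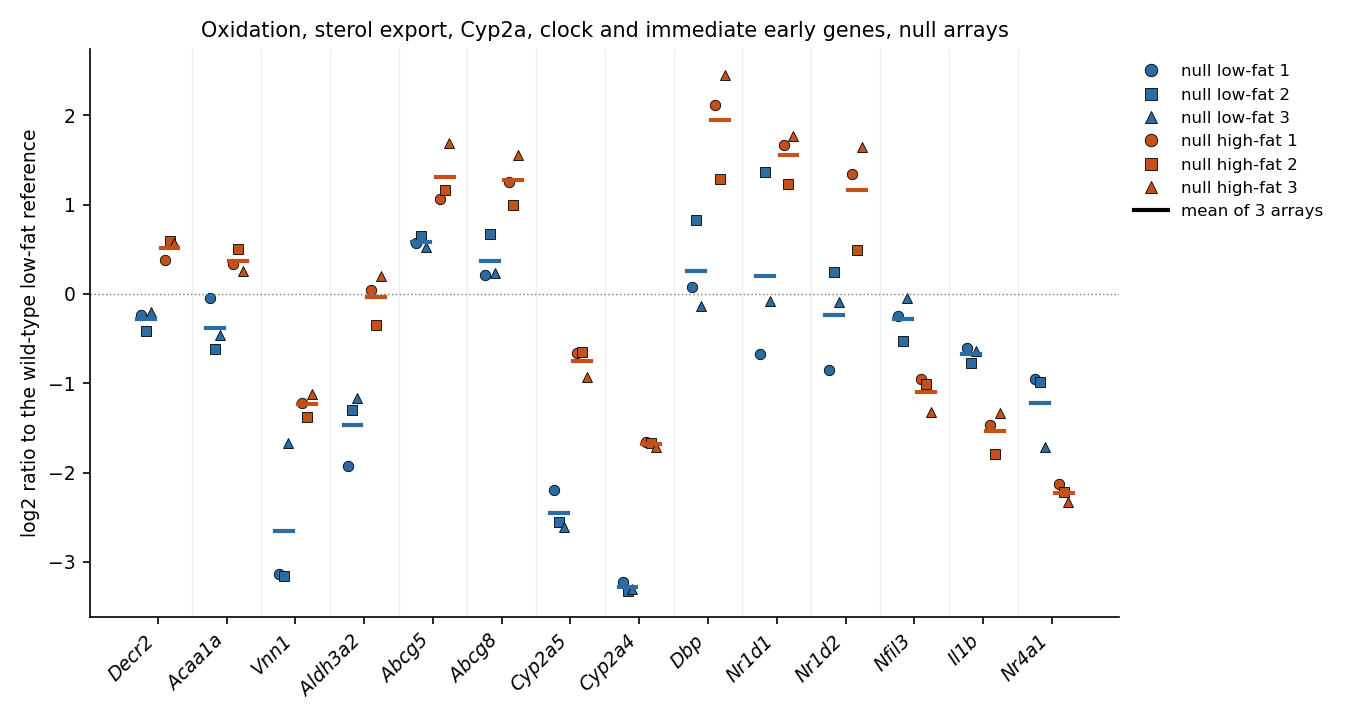
Log2 ratio to the wild-type low-fat reference (vertical axis) of 14 genes on the 3 null low-fat arrays (blue) and the 3 null high-fat arrays (orange), with a bar at each mean and a marker shape per array number. The diets do not overlap except for Nr1d1, where low-fat array 2 reaches the high-fat range.

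Several immediate early and inflammatory genes were lower by value. Of 26 measured heat shock and immediate early genes, 15 were lower and 11 higher (median -0.06), and 6 lay wholly lower, against 4.36% of all genes. Il1b, the inflammatory cytokine, read -0.61, -0.78 and -0.64 on the low-fat and -1.47, -1.79 and -1.34 on the high-fat arrays (-0.86, SE 0.17, limma adjusted p = 0.454). Nr4a1, an orphan receptor induced within minutes of a stimulus, read -0.96, -0.98 and -1.72 against -2.13, -2.22 and -2.33 (-1.01, SE 0.23). The diets did not overlap for either gene. Dusp1, a phosphatase induced by stress and glucocorticoids, read -1.43, 0.02 and 0.67 against -1.93, -1.76 and -2.19, and its difference of -1.71 (SE 0.48) was -2.40 within scan 1 and -0.33 within scan 2. Jun (-1.16, SE 0.48), Cdkn1a (-1.27, SE 0.53) and Tlr2 (-1.15, SE 0.40) were lower without overlap.

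Of the 20 measured cytokines, chemokines and adhesion genes, 16 were lower and 4 higher (median -0.15), with -0.34 within scan 2 but 0.00 within scan 1. The macrophage and Kupffer list gave 13 higher and 14 lower of 27, and its median on single arrays ran from -0.92 to -0.81 on the low-fat and from -1.0 to -0.73 on the high-fat diet. The neutrophil gene S100a9 read -0.03, -1.99 and -0.91 against -2.31, -2.13 and -2.32 (-1.28, SE 0.47).

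Acute phase genes depended on 1 array. Saa1 and Saa2, the serum amyloids, read 1.38, -2.88 and -1.52 and 1.39, -3.10 and -2.05 on the low-fat arrays against -1.15, -1.88 and -2.56 and -1.28, -2.31 and -2.81 on the high-fat arrays. Null low-fat array 1 was the high one in both. The reference was saturated on 2 null arrays for each gene, and the sample channel on 1 for Saa2. Their differences were 0.35 and 0.53 within scan 1 and -3.26 and -3.71 within scan 2, opposite in sign. The 31 acute phase genes had a median of -0.40, made of 0.05 within scan 1 and -1.0 within scan 2. The lists not described one by one had medians between -0.12 (cell cycle genes) and 0.22 (Ah receptor pathway). Orm2 (-0.97, SE 0.50) and Lcn2 (-0.59, SE 0.84) overlapped between the diets.

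**Figure D4:**
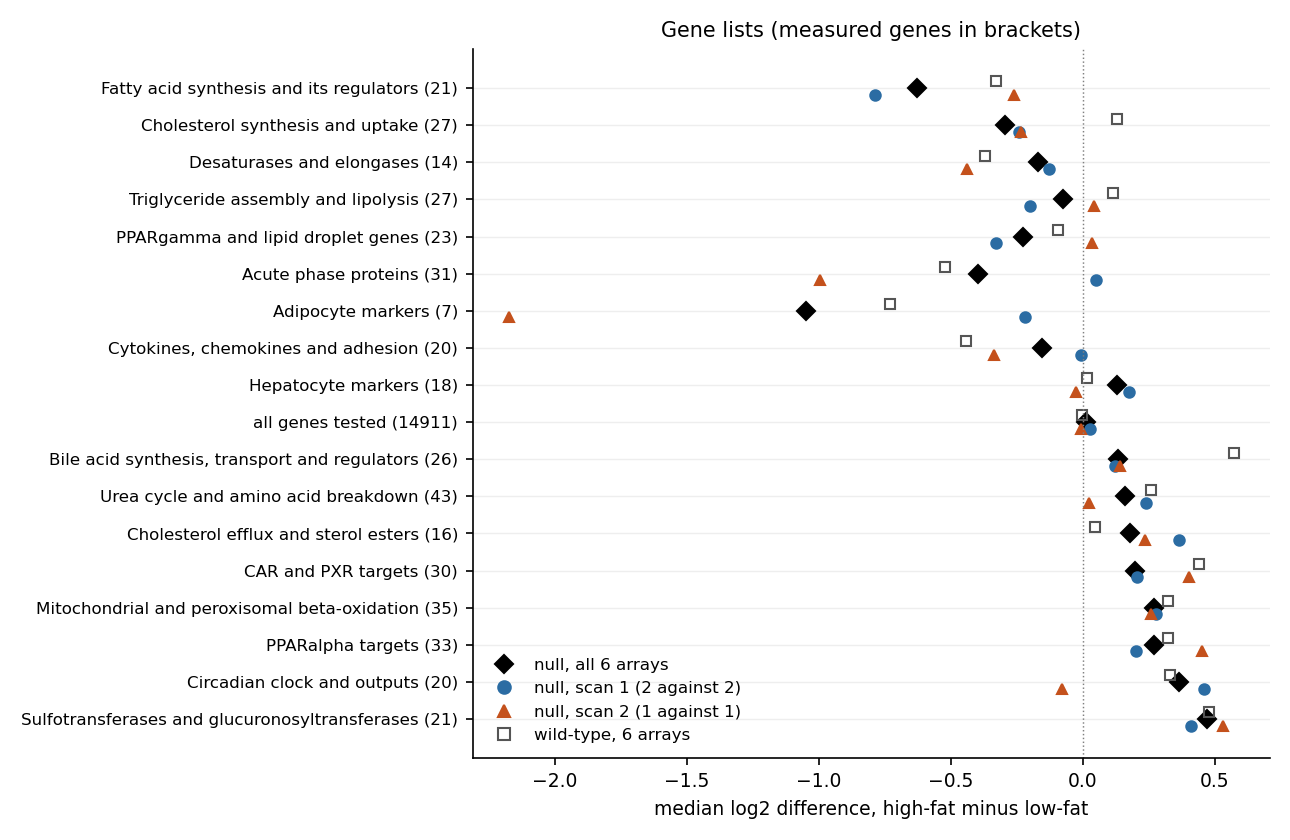
Median log2 difference between high-fat and low-fat livers (horizontal axis) for 17 gene lists and for all genes tested, with the number of measured genes in brackets. Black diamonds are all 6 null arrays, blue circles null arrays of scan 1 (2 against 2), orange triangles null arrays of scan 2 (1 against 1) and open squares the wild-type arrays, and the adipocyte and acute phase lists show the widest gap between the scans.

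Amino acid and male-biased genes were higher by count, and female-biased genes were not. Of 43 measured genes of the urea cycle and amino acid breakdown, 33 were higher and 10 lower (median 0.16). Tdo2, the tryptophan dioxygenase, read 0.38, 0.49 and 1.09 against 1.57, 1.15 and 1.76 (0.84, SE 0.28), without overlap, and its second probe differed by 0.38. Oat (0.86, SE 0.37) and Gpt (0.79, SE 0.32), both aminotransferases, had the same sign. The major urinary protein Mup1, under growth hormone in males, read 2.50, 2.87 and 2.73 against 4.18, 2.94 and 4.10, on spots saturated in the sample channel of all 6 null arrays, so its difference of 1.04 (SE 0.72) may be too small, and from the sample channel alone it was -0.0149. Of the male-biased list 19 of 29 were higher and of the female-biased list 14 of 30, against 52.5% of all genes. Hsd3b5, also male-biased, differed by 0.06 (SE 1.02).

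The remaining genes with the lowest p, picked for a difference of at least 1 log2 unit and no overlap between the diets, belong to no single list. On the lower side were St6gal1, a sialyltransferase of secreted glycoproteins (-1.10, SE 0.21, limma adjusted p = 0.322), and Gramd4 (-1.08, SE 0.19, limma adjusted p = 0.322). A second St6gal1 probe differed by -0.23. Prmt1, the main arginine methyltransferase, read -0.09, -0.55 and -0.27 against -1.18, -1.65 and -1.49 (-1.13, SE 0.23). The class I gene H2-Q1 read -0.51, -1.45 and -0.69 against -3.60, -2.89 and -3.87 (-2.57, SE 0.47), and since it has close copies in its cluster, the gene behind that signal is uncertain.

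Also on the lower side were Celsr1, a planar polarity cadherin (-1.53, SE 0.32), Cd207, a lectin of dendritic cells (-1.29, SE 0.29), and Cd9, a tetraspanin (-1.07, SE 0.23). On the higher side were Krt23, a keratin (1.43, SE 0.37), Kcnk1, a potassium channel (1.16, SE 0.25), Obp2a (1.27, SE 0.35), Capn8, a calpain (1.02, SE 0.32), Rnf186, a ubiquitin ligase (1.06, SE 0.30), and Car3, a carbonic anhydrase (1.26, SE 0.38). Kcnk1 was well above background on 1 of the 3 low-fat arrays, so its low-fat level is mostly a bound and the size of its difference is uncertain. For the genes of this and the preceding paragraph, absence of overlap between the diets was a condition of choice and is not a result. The same rule also picked Scd1, Me1, Acacb, Fasn, Pdk4, Aldh3a2, Hsd17b6, Cyp2a5, Cyp2a4, Dbp and Nr1d2, so the same holds for them. A second Capn8 probe differed by 0.38.

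Nnt, the mitochondrial transhydrogenase whose gene is damaged in C57BL/6J mice, was read on all null arrays. It was -0.01, 0.12 and 0.30 on the low-fat and 0.56, 0.85 and 0.66 on the high-fat arrays (0.56, SE 0.18), higher without overlap, and 3 dimmer probes differed by 0.38, 0.05 and 0.49. In wild-type livers Nnt read 0.22, -0.40 and -0.16 on the low-fat and -0.19, -0.003 and -0.11 on the high-fat diet. These values overlap the null low-fat ones, so the reading does not tell the strain of the null line. Apoa4, an apolipoprotein that rises with hepatic fat, overlapped at -2.45, -0.91 and -1.34 against -2.10, -3.54 and -2.19 (-1.04, SE 0.83).

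The same diet contrast in wild-type livers is the nearest comparison, and it shares no sample array with the null contrast. One gene was called there (0.00671% of genes), Cd9, with a difference of -1.99 (SE 0.23, limma adjusted p = 0.0436) on the high-fat diet. The test of whether the diet difference itself differed between the genotypes called 0 of 14911 genes with limma (0%), and 171 genes had an unadjusted p under 0.05. No gene below is therefore shown to respond differently to diet in null liver.

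Scd1 had the lowest unadjusted p of that test, 0.000324. It differed by -5.18 (SE 0.49) between the diets in null and by -1.62 (SE 0.49) in wild-type livers, where it read -0.82, 0.39 and -0.93 against -1.51, -2.29 and -2.41. The null value minus the wild-type value was -3.56 (SE 0.70), and the test was not past its adjusted threshold. Me1 (-3.59 in null, -0.99 in wild-type), Fasn (-2.35 and -0.94), Acacb (-2.83 and -1.69) and Elovl6 (-1.68 and -0.97) had differences below 0 in both genotypes. In wild-type livers the SEs were 0.56, 0.52, 0.53 and 0.46 in that order. The wild-type diets overlapped for Me1, Fasn and Acacb.

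The cholesterol list had a median of -0.29 in null and 0.13 in wild-type livers. In array order its wild-type medians were -0.06, 0.03 and -0.08 on the low-fat and 0.55, -0.22 and 0.04 on the high-fat diet. Wild-type high-fat array 1 was thus the highest and array 2 the lowest of these. The bile acid list had medians of 0.13 in null and 0.57 in wild-type livers. Beta-oxidation (0.27 and 0.32) and the conjugating enzymes (0.47 and 0.48) had medians near each other. Pdk4 (-1.88 and -1.73), Il1b (-0.86 and -1.03), Abcg8 (0.90 and 0.90), Decr2 (0.80 and 0.73) and Dbp (1.69 and 1.78) had similar values in both genotypes.

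Some genes had values of opposite sign in the genotypes. Rgs16, a regulator of G-protein signalling that follows glucose through ChREBP, read -0.35, 3.1 and 1.34 for null low-fat and -0.96, -1.32 and -0.47 for null high-fat livers, against -2.18, 1.24 and 1.37 and 3.28, 2.31 and 2.68 in wild-type. The genotype difference was -4.89 (SE 1.34), with wide errors and not past the test. Cyp26a1, the retinoic acid hydroxylase, differed by -0.75 in null and 1.0 in wild-type livers, and Pid1, a brake on insulin signalling in fat cells, by -0.89 and 0.38. The null groups overlapped for Cyp26a1, whose null difference was -1.12 within scan 1 and 0.0017 within scan 2. Nucb2, the precursor of nesfatin, differed by 0.99 and -0.55.

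Galm, the aldose mutarotase, differed by -0.50 and 0.61, and Zfp91 by -0.67 and 0.43, with other Zfp91 probes at 0.15 and 0.00 in null livers. The null Galm difference was -0.73 within scan 1 and -0.05 within scan 2. Slc4a1, the anion exchanger of red cells, differed by 0.39 and -0.45, and Itih5 by 0.45 and -0.50. Comtd1 (0.06 and -0.99), Dpp7 (-0.06 and -0.91) and Camk2n2 (0.34 and -0.81) had the larger value in wild-type livers. Scd1 and these 11 genes had the lowest unadjusted p of that test, in each direction, among genes with a settled name.

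**Figure D5:**
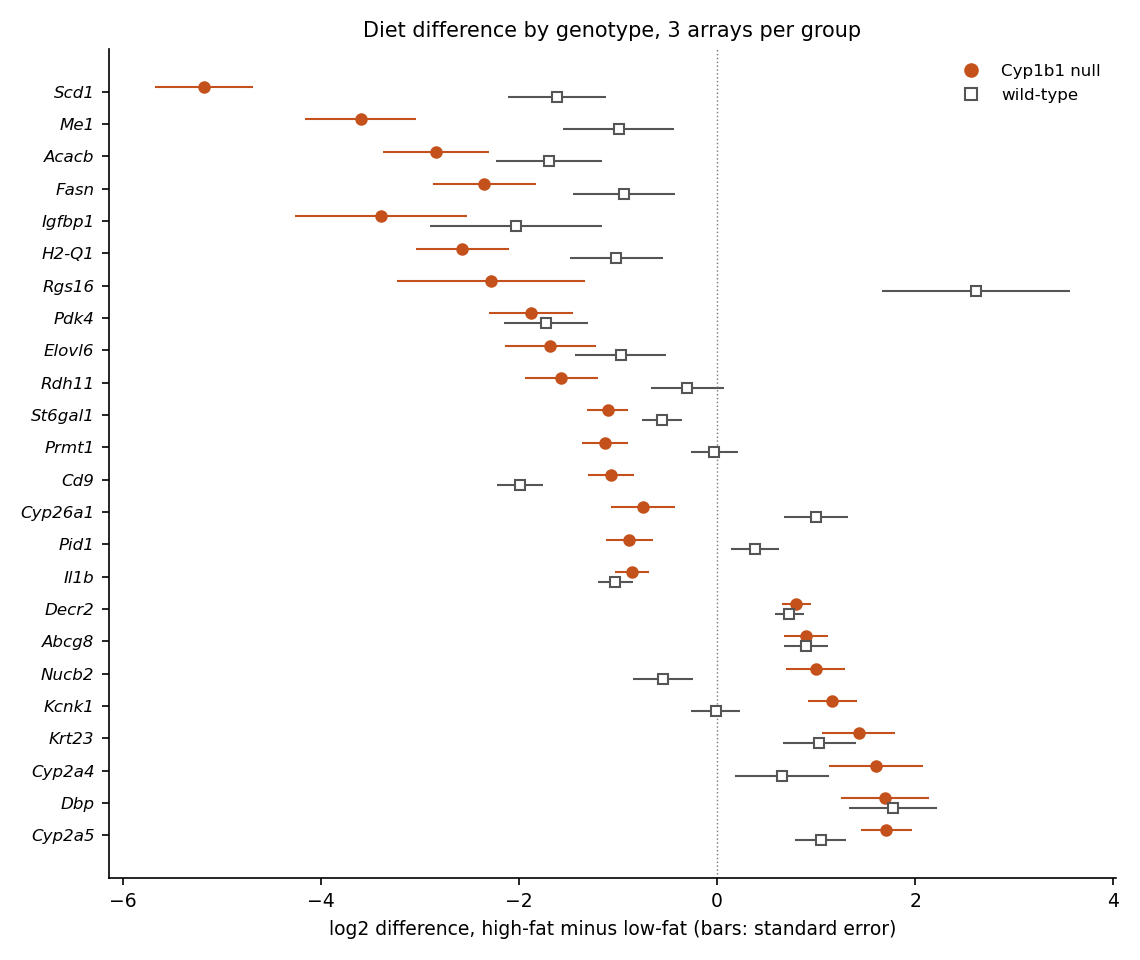
Log2 difference between high-fat and low-fat livers (horizontal axis) of 24 genes in Cyp1b1 null (orange circles) and wild-type livers (open squares), 3 arrays per group, with bars of 1 standard error. Most genes lie on the same side of 0 in both genotypes, Scd1 at -5.18 and -1.62, while Rgs16, Cyp26a1, Pid1 and Nucb2 lie on opposite sides and Kcnk1 is near 0 in wild-type livers.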

How the data were processed

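Scanner files of the 12 arrays hold the spots' red and green intensity, with local background, as deposited by the authors per the file headers. The deposited files also hold log10 ratios of red over green, and the authors' deposited table holds log2 values for other comparisons, which were used only to check the direction of the ratios. The submitters' processing notes name limma, with no version.

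From the mean signals and local background, log2 Cy3 over Cy5 was computed with limma 3.58.1 in R 4.3.3 (normexp with an offset of 50, loess within each array). A group of 20 spots on 5 arrays (2 of them null), whose signal lay more than 100 below a local background of smeared pixels, was left out, because the normexp fit failed on 2 arrays with them. This step was chosen after seeing the data, and the fit with those spots was kept as an alternative. Control spots and outlier flags were dropped (69 spots on the null arrays), and a spot without a value stayed missing, which left 34 genes without a value on 1 or more arrays.

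A probe was kept when the sample channel was well above background for every array of at least 1 group, which left 21490 of 41174 probes, and the brightest probe stood for its gene (14911 genes, 4900 of them with several probes). Gene names came from the file's accession for 24844 probes, a current symbol for 6045, an older symbol for 1810 and the file's own name for 8475. One lmFit and eBayes model over 4 groups of 3 arrays gave each diet difference and the difference of differences, with 8 residual degrees of freedom. The test was checked on simulated data with independent noise per array. That simulation held no scan or slide effect, so it does not cover the layout of these arrays.

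Named genes were a set of 42 (41 measured), up to 12 per direction with the lowest p, a log2 difference of at least 1 and no overlap, up to 4 per gene list, and 6 per direction for the genotype difference. The members and the 43 gene lists (1040 genes, 939 measured) were chosen with earlier results of these data known. Alternatives covered background correction, normalization, the filter on dim probes, the probe rule, the arrays in the fit, scan, slide and replicate number as a block, array weights and each array left out. The values of some list members are not reported here.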

Additional observations from a re-analysis of the deposited data

How the results depend on the processing

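The null diet count of 1 gene became 0 with median centring (46 genes at an unadjusted limma p under 0.05) and with no filter on dim probes (780), 2 on the 6 null arrays alone (Acacb, Cyp2a4), 6 from the sample channel alone (Capn8, Cd9, Kcnk1, Me1, Nme4, Scd1), 5 with slide as a block (BC023105, Cidea, Cxcl1, Prkar2b, Prok1), 1071 with array weights and 11 on the null arrays alone with scan as a block, the last chosen after seeing the data. Leaving out 1 array gave 0 to 1, with 0 without null low-fat array 2 or 3 (566 and 311 genes at an unadjusted limma p under 0.05, a number that was 3894 with array weights and 762 with slide as a block). With the spots of high local background kept, 1 gene was called and 285 had an unadjusted p under 0.05. The wild-type count of 1 became 5 with Agilent's processed signals, 3 with an offset of 10, 2 with no background correction or with probes well above background on all 6 null arrays, 24 with Aquantile, 9 from the sample channel, and 0 with median centring, no filter, robust variance, array weights, scan, slide or replicate block or without the null arrays of slide 3, and it ran from 0 to 2 without 1 array. The genotype difference called 0 genes in limma under every alternative (15 to 802 at an unadjusted p under 0.05, and 90 to 550 without 1 array).

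With the replicate number as a block the null count was 1 (521 at an unadjusted limma p under 0.05), and Scd1 had an adjusted p of 0.0103. The numbers did not pair the null arrays, whose same-number deviations correlated at -0.64, -0.63 and 0.12.

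Differences that changed sign, none of them called, were Hmgcs1 3.06 and Hsd3b5 -0.0413 with processed signals, Cyp1b1 0.0191 with median centring, Hsd3b5 -0.0179 with Aquantile, Cyp1b1 0.0721, Plin2 -0.0249 and Mup1 -0.0149 from the sample channel, Cd36 0.0626, Cyp2b10 0.0198 and Lcn2 0.18 with array weights, and Plin2 -0.0336 and Mogat1 0.12 with slide as a block. In scan 1 alone, and without the null arrays of slide 3, they were Saa1 0.35, Saa2 0.53, Lcn2 0.18 and Hsd3b5 -0.0609. In scan 2 alone they were Mogat1 0.00917, Cyp4a14 0.67, Fgf21 0.39, Cyp3a11 0.49, Per1 -0.0137, Psph 0.0723 and Cox4i1 0.11. With the spots of high background kept they were Cd36 0.22, Pparg 0.0294, Cyp4a14 0.16, Cyp8b1 -0.0357 and Cyp2b9 0.44. Without 1 array, Srebf1 ran from -0.17 to 0.67, Fabp4 from -1.66 to 0.11, Cyp8b1 from -0.44 to 0.69, Saa1 from -1.79 to 0.34, Saa2 from -1.80 to 0.44, Hsd3b5 from -0.12 to 0.21, Cyp4a14 from -0.51 to 0.54, Cd36 from -0.38 to 0.0594 and Cyp2b10 from -0.29 to 0.11. The cause was not tested for any of these. With 3 arrays per group, and slide and diet bound together in scan 1, small differences were not detectable.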

Other observations

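Psph, the last enzyme of serine synthesis, read -0.96, -0.95 and -1.14 for null low-fat and -2.86, -0.89 and -3.29 for null high-fat livers. Cox4i1, a subunit of cytochrome oxidase, read -0.23, -0.35 and 0.07 against -1.97, -0.12 and -2.42. Both were low on null high-fat arrays 1 and 3, which share slide 1, and not on array 2. The differences within scan 1 were -2.03 and -2.06, and within scan 2 they were 0.07 and 0.11. A second Psph probe differed by -0.17 over all 6 null arrays. These 2 genes were singled out after their values were seen.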
